A study of Mus musculus with 6 samples.

Results

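The 10 neuronal splicing and RNA-binding regulators described here were measured in nuclei of formalin-fixed paraffin-embedded (FFPE) and frozen mouse brain. The members were named as a set: Rbfox1, Rbfox2, Rbfox3, Celf2, Celf4, Celf5, Nova1, Elavl2, Elavl4 and Mbnl2, which are 10 of the 25696 mouse genes in the tables. All 10 were found in every table by symbol. Proteins of these families bind short motifs in precursor and messenger RNA, and by where they bind they promote or repress the use of neighbouring exons, or set the stability and translation of the transcript. Neurons carry large amounts of several of them, and RBFOX3 is the antigen known as NeuN, a standard marker of mature neurons. Most of their genes are long and mostly intronic, so nuclear RNA holds many reads from their introns.

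The nuclei came from C57BL/6J mice of 8 to 12 weeks, labelled as cortex. FFPE scrolls of 50 µm had their paraffin removed with xylene, either heated or at room temperature, or with heated mineral oil, were taken back to water through ethanol, and were lysed to free the nuclei for sorting. Frozen wells and nuclei are named in the authors' annotation tables only, and the sources used here give neither their strain nor their age. No transgene, drug or genotype difference is given for any group. The bulk material was 64 SCRB-seq wells (a 3′ counting method) with 16 wells per method, 8 of 10 nuclei and 8 of 100 nuclei, and 12 SMART-Seq2 wells (a full-length method), 1 each of 10, 50 and 100 nuclei per method. Single nuclei were 143 FFPE and 137 frozen plate nuclei, 98 further FFPE plate nuclei of batch 1, and 7031 FFPE droplet nuclei in 12 annotated classes. All bulk wells of an assay belong to 1 GEO sample, so p-values measure the spread between wells, which may be technical.

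Mouse counts per SCRB-seq well ran from 7512 to 167144, and counts per SMART-Seq2 well from 270363 to 942966. The mineral oil wells of 10 nuclei had the lowest median total, 14557.5, with totals of 7512 to 20593. Frozen wells of 10 nuclei overlapped them, at 17611 to 61826. Mineral oil wells of 10 nuclei had 22.9% to 31.8% of their counts on human gene rows, with a median of 26.6%. Room-temperature xylene wells of 10 nuclei reached 22.6%, all FFPE wells had a median of 12.4%, and frozen wells held 1.61% to 3.70%. The label of cortex was checked against markers of other regions and cell types. Markers of cerebellar granule neurons (10 genes, 9 in the table) summed to 449 to 7055 CPM (counts scaled to a total of 1000000) in the 48 FFPE SCRB-seq wells and to 56.8 to 605 CPM in the 16 frozen wells, where the defining markers Gabra6 and Cbln3 were at 0. Markers of cortical excitatory neurons (10 of 10 in the table) summed to 95.8 to 1382 CPM in FFPE wells and 1647 to 2872 CPM in frozen wells. In SMART-Seq2 the granule sum was 2754 to 8660 CPM in FFPE wells and 385 to 673 CPM in frozen wells, with Gabra6, Cbln3, Cbln1 and Zic1 at 0 in the frozen wells. Striatal spiny neuron markers (8 of 8) were present in frozen wells too, at 622 to 2839 CPM in SCRB-seq (FFPE median 536) and 1857 to 2389 CPM in SMART-Seq2 (FFPE median 1429). The sum of pan-neuronal markers (5 of 6 in the table) was lower in every FFPE well, at 958 to 10105 CPM against 13174 to 18643 in SCRB-seq and at 8971 to 11165 against 11985 to 16577 in SMART-Seq2, but its genes did not move as a group. By edgeR, Meg3 fell in both assays (-1.81 and -1.85) and Syt1 in SCRB-seq (-1.21), while Stmn2 rose in both (0.94 and 2.04) and Snap25 in SMART-Seq2 (1.70). Inhibitory neuron markers (9 of 10) summed to 532 to 2738 CPM in FFPE and 55.0 to 440 CPM in frozen SMART-Seq2 wells, with Slc32a1 and Pvalb at 0 in the frozen wells, and overlapped in SCRB-seq with medians of 751 and 279 CPM. Astrocyte markers (6 of 8) had SCRB-seq medians of 1855 CPM in FFPE and 835 CPM in frozen wells. Oligodendrocyte markers (8 of 8) summed to 884 to 2900 CPM in FFPE and 77.4 to 373 CPM in frozen SMART-Seq2 wells, and overlapped in SCRB-seq with medians of 1513 and 397 CPM. In the bulk wells these marker levels differ between the same arms as the members, and their part in the members' results was not tested. In a bulk well, fewer nuclei of a type and less RNA per nucleus cannot be told apart.

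Of the CELF family, which bind GU-rich RNA, Celf2 was lower in FFPE nuclei in both bulk assays. Celf2 lies on chromosome 2 (GRCm38, 6539694 to 7509563, minus strand) and spans 970 kb, of which 2.67% is exonic in the GENCODE annotation. In the 16 frozen SCRB-seq wells it ranged from 3083 to 5843 CPM with a median of 4412, and in the 48 FFPE wells from 90.4 to 2868 CPM with a median of 1018. Every FFPE well lay below every frozen well, which held for 1.69% of the 1478 genes tested. FFPE minus frozen was -2.16 on the log2 scale (SE 0.22, edgeR's quasi-likelihood test, Benjamini-Hochberg adjusted p = 3.51e-14). Over 7 alternative fits the difference lay between -2.74 and -1.84 and all 7 passed. Celf2 was the 1 member called of the 6 that passed the filter on low counts, where 58% of all genes tested were called, 27.7% lower and 30.2% higher.

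The SMART-Seq2 wells gave the same order for Celf2. The frozen wells held 6310, 5877 and 6362 CPM at 10, 50 and 100 nuclei. Heated xylene wells held 4498, 2185 and 2972 CPM, room-temperature xylene wells 1760, 2692 and 3300 CPM, and mineral oil wells 2727, 1192 and 1241 CPM in that order of nuclei number. Again no FFPE well reached a frozen well, as for 4.96% of the 9092 genes tested. The difference was -1.59 (SE 0.27, adjusted p = 0.000806, edgeR), and it stayed between -1.72 and -1.42 with an adjusted p of at most 0.00597 when each of the 12 wells was left out. Celf2 and Elavl2 were the 2 members called of 10 tested, with 4.09% of all genes called, 2.64% lower and 1.45% higher.

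**Figure D1:**
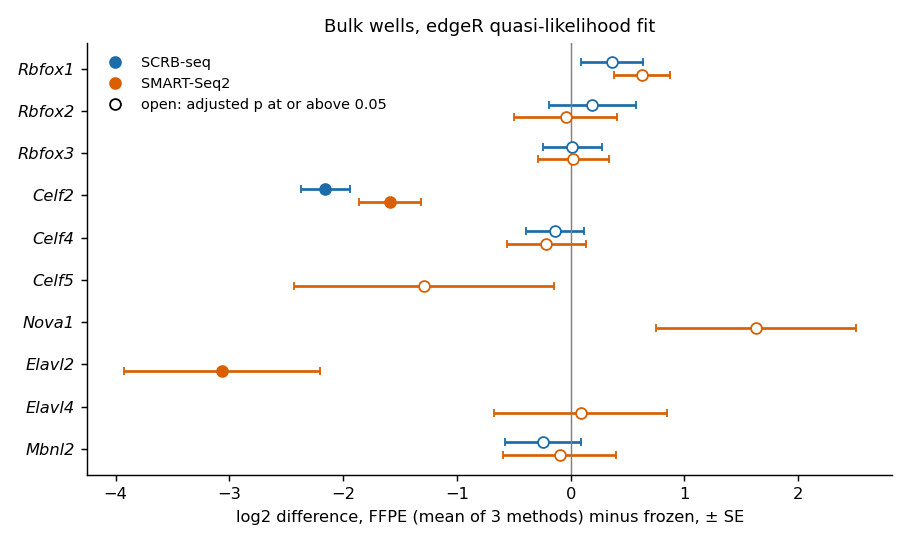
The log2 difference of FFPE (mean of 3 methods) minus frozen with its SE is plotted for each member that passed the low-count filter, for SCRB-seq and SMART-Seq2, with filled points for adjusted p under 0.05. Celf2 is filled in both assays, at -2.16 and -1.59, and Elavl2 in SMART-Seq2 at -3.06, while every other point is open.

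The other CELF genes were not called with the settings used for Celf2. Celf4, a regulator of synaptic transcripts on chromosome 18, had medians of 591 CPM in frozen and 540 CPM in FFPE SCRB-seq wells with overlapping ranges. Its difference was -0.14 (SE 0.26, adjusted p = 0.673, edgeR), and -0.73 (adjusted p = 0.0111) with DESeq2's size factors, a scaling that moved the median of all genes from 0.00 to -0.58. In wells of 100 nuclei it had the other sign, at 0.28 (adjusted p = 0.439). In SMART-Seq2 it was -0.22 (SE 0.35, adjusted p = 0.871, edgeR). Celf5, whose gene of 23.5 kb is the shortest of the set, had a median of 158 CPM in frozen wells and 33.2 CPM in FFPE wells, and 22 of 48 FFPE wells lay below the lowest frozen well. It did not pass the SCRB-seq filter; with no filter the difference was -1.94 (adjusted p = 5.38e-05) and in wells of 100 nuclei alone -1.89 (adjusted p = 0.000300, edgeR). SMART-Seq2 gave -1.29 for Celf5 with an SE of 1.15 (adjusted p = 0.699, edgeR), from counts of 0 to 131 per well.

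**Figure D2:**
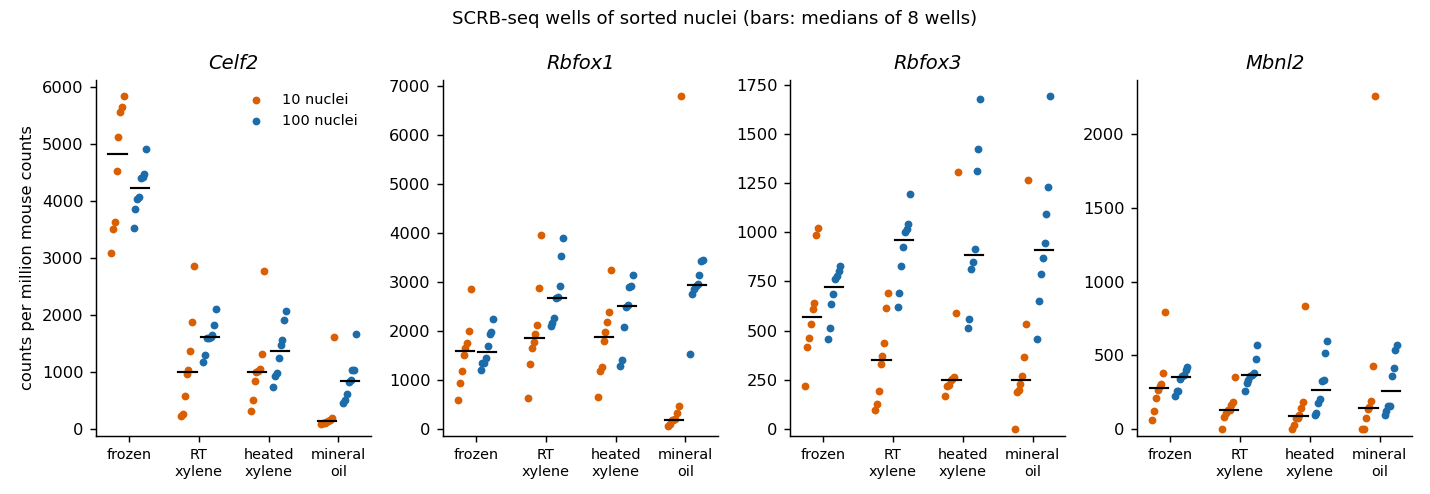
Each point is 1 SCRB-seq well, with CPM of mouse counts on the vertical axis, methods on the horizontal axis, wells of 10 and 100 nuclei in separate colours and bars at the medians of 8 wells. Frozen Celf2 lies between 3083 and 5843 CPM, above all FFPE wells, while the frozen and FFPE points of Rbfox1, Rbfox3 and Mbnl2 overlap.

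The RBFOX family binds GCAUG motifs and regulates alternative exons of neuronal transcripts. Rbfox1 (chromosome 16, 5885355 to 7411526, plus strand) spans 1526 kb with 0.288% exonic. In SCRB-seq its frozen wells ran from 595 to 2863 CPM with a median of 1580, and its FFPE wells from 49.9 to 6789 CPM with a median of 2178. The ranges overlapped: 15 of 48 FFPE wells lay above the highest frozen well and 7 below the lowest. Every FFPE well was above every frozen well for 1.29% of genes tested, and for no member. The difference of 0.37 (SE 0.27) did not pass (adjusted p = 0.249, edgeR). Without the mineral oil wells of 10 nuclei, a choice made after seeing the data, it was 0.64 (adjusted p = 0.00133), in wells of 100 nuclei 0.62 (adjusted p = 0.00210), and with DESeq2's size factors -0.18 (adjusted p = 0.567).

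In SMART-Seq2 all 9 FFPE wells were above all 3 frozen wells for Rbfox1, as for 3.72% of genes tested. Frozen wells held 2329, 3103 and 2385 CPM at 10, 50 and 100 nuclei, and FFPE wells 3186 to 7114 CPM with a median of 4906. The difference was 0.63 (SE 0.25) and missed the threshold (adjusted p = 0.197, edgeR), as it did with each well left out (adjusted p from 0.0708 to 0.476).

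The SCRB-seq table also has rows for human genes, and the human RBFOX1 row moved with the FFPE wells. It held 38359 counts in the 48 FFPE wells, 5.48 times the 7002 counts of mouse Rbfox1, and was the most counted of 10653 human rows with 9.59% of human counts, just ahead of LPP with 37401. Per well it ranged from 991 to 63616 CPM of all counts with a median of 10852. In the 16 frozen wells it held 379 counts against 1811 for mouse Rbfox1, with a range of 229 to 885 CPM of all counts. In CPM of all counts no FFPE well was as low as the highest frozen well. All human rows together were also apart, with 6.17% to 31.8% of counts in FFPE wells and 1.61% to 3.70% in frozen wells. As a share of human counts the RBFOX1 row overlapped, at 1.54% to 22.2% in FFPE and 1.09% to 2.55% in frozen wells. The part of the human row in the mouse Rbfox1 result was not tested. The human ELAVL2 row also exceeded its mouse counterpart in FFPE wells, with 358 counts against 143, and in frozen wells held 78 against 110. For the other 8 members the human row held between 0.0122 and 0.481 of the mouse counts in FFPE wells.

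Neither remaining RBFOX gene passed in either assay. Rbfox3 had medians of 638 CPM in frozen and 617 CPM in FFPE SCRB-seq wells, with FFPE wells spread from 0 to 1693 CPM around frozen wells of 216 to 1022 CPM. Its differences were 0.02 (SE 0.26, adjusted p = 0.961) in SCRB-seq and 0.02 (SE 0.31, adjusted p = 0.987) in SMART-Seq2, both by edgeR. The SCRB-seq value took either sign with the setting, from -0.69 to 0.42. Rbfox2, the family member expressed most widely outside neurons, had medians of 204 CPM in both arms, and differences of 0.19 (SE 0.38, adjusted p = 0.692) and -0.04 (SE 0.45, adjusted p = 0.983, edgeR).

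ELAVL proteins, the neuronal Hu antigens, bind AU-rich elements and stabilise transcripts. Elavl2 (chromosome 4, 91250763 to 91400785, minus strand) held 248, 396 and 180 CPM in the frozen SMART-Seq2 wells of 10, 50 and 100 nuclei. The 9 FFPE wells held 0 to 117 CPM with a median of 40.6, all below the frozen wells, as for 4.96% of the 9092 genes tested. Counts were 0 in the 10-nuclei wells of room-temperature xylene and mineral oil. The difference was -3.06 (SE 0.86, adjusted p = 0.0439, edgeR). The call rested on single wells: the difference stayed between -3.98 and -2.68 with each of the 12 wells left out, and the adjusted p was under the threshold in 4 of the 12 fits and reached 0.337. In SCRB-seq Elavl2 was too sparse to test, with medians of 81.3 CPM in frozen wells and 18.7 CPM in FFPE wells and overlapping ranges. Elavl4 had SMART-Seq2 medians of 144 CPM in frozen and 125 CPM in FFPE wells and a difference of 0.09 (SE 0.76, adjusted p = 0.980, edgeR).

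Nova1, which binds YCAY motifs and controls splicing of synaptic transcripts, leaned the other way without passing. Its frozen SMART-Seq2 wells held 12.3, 37.0 and 42.9 CPM at 10, 50 and 100 nuclei, and its FFPE wells 19.5 to 176 CPM with a median of 133. Of 9 FFPE wells, 8 lay above the highest frozen well. The difference was 1.63 (SE 0.88, adjusted p = 0.413, edgeR). In SCRB-seq Nova1 was too low to pass the filter, and its order depended on the summary, with medians of 51.2 CPM in frozen and 16.6 CPM in FFPE wells and means of 44.3 ± 36.5 (SD, n = 16) and 51.9 ± 104 CPM (SD, n = 48). Mbnl2, a muscleblind protein that shifts exons from fetal to adult use, had SCRB-seq medians of 299.7 CPM in frozen and 176 CPM in FFPE wells and a difference of -0.24 (SE 0.33, adjusted p = 0.562, edgeR). With DESeq2's size factors that became -0.80 (adjusted p = 0.0383). In SMART-Seq2 its difference was -0.10 (SE 0.50, adjusted p = 0.964, edgeR).

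**Figure D3:**
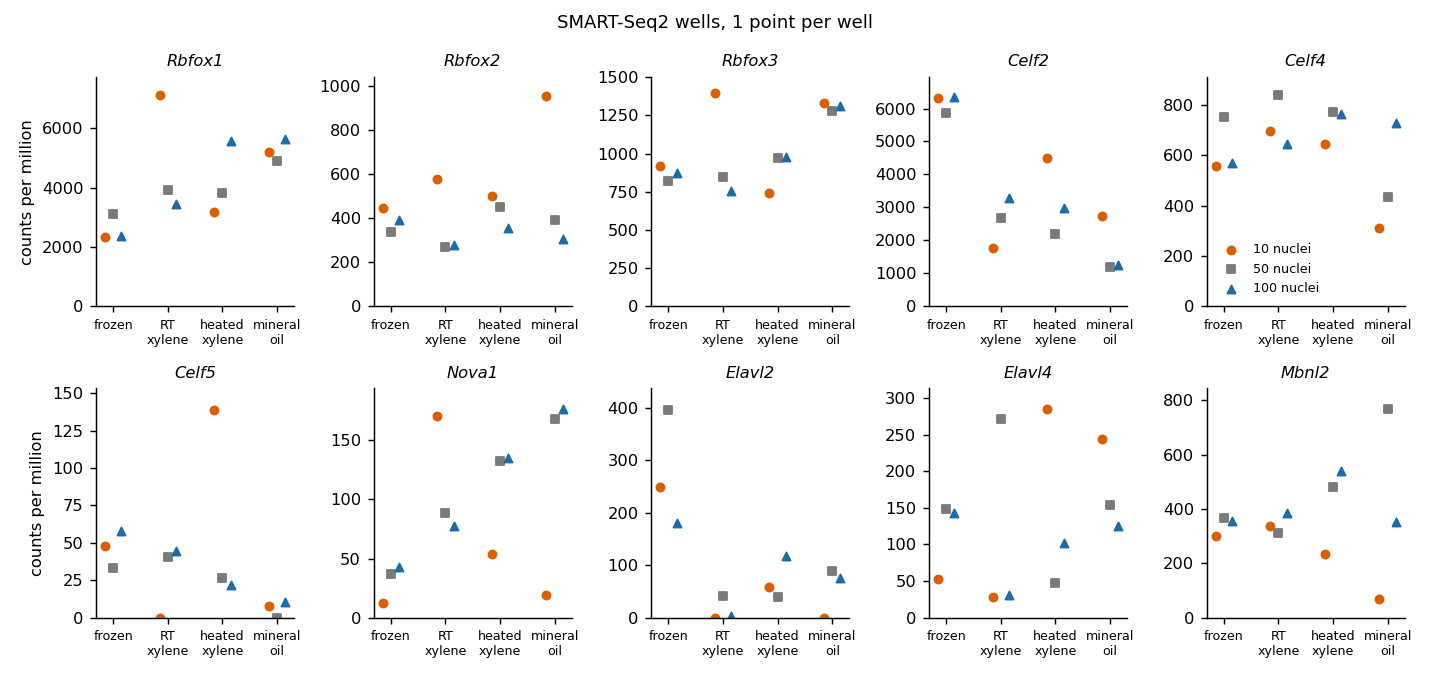
Each panel shows the CPM of 1 member in the 12 SMART-Seq2 wells by method, with a symbol for 10, 50 or 100 nuclei. Frozen wells lie above all FFPE wells for Celf2 (5877 to 6362 against 1192 to 4498 CPM) and Elavl2 (180 to 396 against 0 to 117 CPM), and below all of them for Rbfox1.

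Among the paraffin removal methods, which share the FFPE wells of the comparison with frozen, Celf2 was again the member that changed. Its SCRB-seq medians were 476 CPM with mineral oil, 1028 with heated xylene and 1481 with room-temperature xylene, and the ranges of all 3 methods overlapped. Mineral oil was lower than heated xylene by a log2 difference of -1.06 (SE 0.35, adjusted p = 0.0409, edgeR; 8.52% of 1080 genes called) and lower than room-temperature xylene by -1.24 (SE 0.35, adjusted p = 0.0147, edgeR; 10.3% called). Heated minus room-temperature xylene was -0.18 (SE 0.34, adjusted p = 0.871, edgeR; 1.94% called, no member). In 7 of 8 mineral oil wells of 10 nuclei Celf2 lay between 90.4 and 183 CPM, and in the other at 1605 CPM. The call against heated xylene also ended with DESeq2's size factors (-1.04, adjusted p = 0.0995) and its Wald test (-1.04, adjusted p = 0.0539). Without those 8 wells both calls ended, at -0.55 (adjusted p = 0.333) and -0.73 (adjusted p = 0.171, edgeR). In the wells of 100 nuclei the medians were 832, 1359 and 1607 CPM. There mineral oil minus heated xylene was not called (-0.65, adjusted p = 0.0892), and mineral oil minus room-temperature xylene was (-0.82, adjusted p = 0.0374, edgeR).

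Markers of other cell types differed between the same wells. Inhibitory neuron markers (9 of 10 in the table) summed to 0 to 538 CPM with mineral oil, 367 to 1991 CPM with heated xylene and 438 to 1707 CPM with room-temperature xylene, and Gad2, Slc32a1 and Lamp5 were at 0 with mineral oil alone. Sst was at 0 with mineral oil and heated xylene, and Vip with mineral oil and room-temperature xylene. Mineral oil wells also had the lowest totals, with a median of 26385.5 mouse counts against 67425.5 and 64960. Both inhibitory markers tested and 2 of 3 oligodendrocyte markers tested were called lower with mineral oil in each of the comparisons with xylene, with median log2 differences of -2.56 and -1.93 against heated xylene. The part of these markers in the Celf2 differences was not tested.

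Elavl4 and Nova1 entered the method comparisons only under other settings. Elavl4 had medians of 178 CPM in mineral oil wells of 100 nuclei and 33.1 CPM in the matching heated xylene wells. In those wells of 100 nuclei the difference of 2.06 missed the threshold (SE 0.74, adjusted p = 0.0632, edgeR). It was called with no filter (1.71, adjusted p = 0.0276) and without the mineral oil wells of 10 nuclei (2.49, adjusted p = 0.00918, edgeR), a fit that sets mineral oil wells of 100 nuclei against xylene wells of 10 and 100. Of all genes, 3415 of 18205 were called with no filter and 173 of 2169 without those wells. Nova1 was lower with mineral oil than with room-temperature xylene by -2.35 with no filter (adjusted p = 0.0133, edgeR), where 2925 of 18205 genes were called. In SMART-Seq2 no gene was called between methods among 8372 tested, a background of 0, while 314 genes (mineral oil minus heated xylene), 199 (heated minus room-temperature xylene) and 379 (mineral oil minus room-temperature xylene) had an unadjusted p under 0.05 by edgeR. DESeq2's Wald test gave no member there either. Celf2 had SMART-Seq2 method differences of -0.92, 0.45 and -0.46 in that order, with SEs of 0.38.

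The number of nuclei per well did not pass for any member as a modifier of the FFPE difference, while 18.9% of genes passed. Rbfox3 came nearest, with an FFPE minus frozen difference larger by 1.06 at 100 than at 10 nuclei (SE 0.43, adjusted p = 0.0712, edgeR). Its FFPE median was 258 CPM in wells of 10 nuclei and 923 CPM in wells of 100, against 570 and 724 CPM in frozen wells. Celf2 had a difference of 0.80 (SE 0.40, adjusted p = 0.16, edgeR) and Rbfox1 of 0.72 (SE 0.45, adjusted p = 0.279). The median of this difference was 0.76 over the 6 members and 0.46 over all 1478 genes.

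Related genes outside the set were read from lists of 30 other RNA-binding regulators and 35 general splicing factors. Among the regulators, 9 passed the SCRB-seq filter, and 1 rose and 1 fell in FFPE wells, where 30.2% of all genes were called higher and 27.7% lower. Khdrbs3, a STAR family splicing regulator, fell from a frozen median of 631 CPM to 19.6 CPM (log2 difference -3.67, SE 0.34, adjusted p = 2.73e-15, edgeR). Qk, which regulates splicing in glia, rose from 67.8 to 202 CPM (1.68, SE 0.44, adjusted p = 0.000640, edgeR). In SMART-Seq2, 26 were tested and none rose, where 1.45% of all genes were called higher and 2.64% lower. Khdrbs3 (-4.14, adjusted p = 0.000583) and its relative Khdrbs2 (-2.95, adjusted p = 0.0157, edgeR) fell. Their FFPE wells stood at 0 to 364 and 3.9 to 139 CPM, and frozen wells at 547 to 806 and 325 to 542 CPM. The list's median difference was -0.29 in SCRB-seq and 0.08 in SMART-Seq2, against 0.00 and -0.13 over all genes and -0.06 and -0.07 over the members tested.

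General splicing factors were called in both directions in SCRB-seq, as all genes were. Of 11 tested, 3 rose, beside 30.2% of all genes, namely the helicase Ddx5 (1.87, adjusted p = 1.09e-05), Hnrnpa2b1 (1.07, adjusted p = 0.0173) and Son (0.80, adjusted p = 0.0183, edgeR). Another 5 fell, beside 27.7% of all genes, led by Luc7l3 (-2.20, adjusted p = 2.59e-10), Srsf11 (-1.69, adjusted p = 8.11e-05) and Rbm39 (-1.37, adjusted p = 5.20e-05, edgeR). In SMART-Seq2 none of 32 passed, where 4.09% of 9092 genes did. Between mineral oil and room-temperature xylene, Qk (-1.52, adjusted p = 0.0297) and Msi2 (-1.34, adjusted p = 0.0369, edgeR) of the regulators were lower with mineral oil, as were the oligodendrocyte markers given above, with a median of -2.02 over the 3 tested.

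Single plate nuclei were compared without a test, since each arm is a pool of nuclei with no replicate samples; intervals cover counting error only, and reads without molecular identifiers are not independent molecules. The FFPE arm holds 134 nuclei of batch 2 with a median of 42747 counts and 9 deeper columns with 57.3% of the arm's counts, and frozen nuclei had a median of 255329 counts. Celf2 stood at 1478 CPM (1463 to 1494) in pooled FFPE and 2729 CPM (2716 to 2742) in pooled frozen nuclei, a log2 ratio of -0.88. The ratio was -1.17 without the deep columns and -1.46 as a mean over nuclei. By plate, the FFPE pools held 804 and 1686 CPM and the frozen pools 2631 and 2822 CPM, so the plates of these arms did not overlap. Batch 1, which shares the frozen nuclei of this comparison, held 2177 CPM, with a log2 ratio of -0.33. Its plates stood at 2637 and 2094 CPM, and the higher of them lay above the lower frozen plate.

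Of the 10 members, 2 were at least 2-fold apart between the arms, where 29.5% of 14822 genes were at least 2-fold higher and 34.5% at least 2-fold lower in FFPE. Celf5 stood at 31.2 CPM in FFPE and 80.7 CPM in frozen nuclei (log2 ratio -1.37, and -0.56 without the deep columns). Elavl4 stood at 97.2 and 38.7 CPM (1.33), but 66.2% of its FFPE counts came from 1 nucleus, and without the deep columns its ratio was -0.77. Elavl2 stood at 41.9 and 79.0 CPM (-0.92, and -2.19 as a mean over nuclei), and Nova1 at 54.5 and 38.0 CPM (0.52, and 1.48 as a mean over nuclei). Rbfox1 had 1578 and 1825 CPM, with a ratio of -0.21 that was 0.75 as a mean over nuclei and 1.23 in batch 1. Rbfox3 moved from -0.70 to 0.48 as a mean over nuclei, and Celf4 from -0.63 to 0.28 without the deep columns, so neither direction was settled by these pools. With a mean over nuclei, 3 members were at least 2-fold apart, Celf2 and Elavl2 lower and Nova1 higher in FFPE, where 26.5% of genes were 2-fold higher and 39% 2-fold lower. Without the deep columns there were also 3, Nova1 higher and Celf2 and Elavl2 lower, where 23.2% and 44.2% of genes were. In batch 1 there were 4, with Elavl4, Rbfox1 and Nova1 higher and Celf5 lower, where 25.7% and 43.7% of genes were. The plates of batch 1 differed: Elavl4 stood at 723 and 20.3 CPM, with 50.3% of its batch 1 counts in 1 nucleus, and Nova1 at 0.38 CPM (1 count) and 103 CPM. Rbfox1 stood there at 2124 and 4669 CPM and Celf5 at 43.5 and 14.0 CPM. As a mean over nuclei batch 1 had 5, Elavl2 lower as well, where 26.5% and 41.2% of genes were. Mbnl2 stood at 287 CPM in FFPE and 269 CPM in frozen nuclei (0.09, and -0.45 as a mean over nuclei), and at 472 CPM in batch 1 (0.81). Rbfox2 stood at 354 and 277 CPM (0.36, and -0.20 as a mean over nuclei), and at 214 CPM in batch 1 (-0.37). Granule markers summed to 2776 CPM in FFPE, 4060 in batch 1 and 501 CPM in frozen nuclei, and cortical excitatory markers to 812, 625 and 2525 CPM. In that order, pan-neuronal markers summed to 5939, 6196 and 9672 CPM. Inhibitory markers stood at 1011, 1794 and 1938 CPM, the reverse of their order in the bulk wells. Astrocyte markers stood at 1127, 1429 and 1280 CPM, oligodendrocyte markers at 2903, 2731 and 2662, and oligodendrocyte precursor markers at 133, 92.3 and 382. The part of these markers in the plate ratios was not tested.

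To compare shares of nuclei at 1 number of reads, each nucleus was thinned to 10000 counts, which left 126 FFPE nuclei of batch 2, 90 of batch 1 and 127 frozen nuclei, and left out 8, 8 and 10. Thinned FFPE nuclei still held fewer genes, with medians of 986.5 and 961 against 1723 in frozen nuclei, so equal reads without molecular identifiers are not equal numbers of molecules. The share of nuclei with a count was highest in frozen nuclei for 9 of the 10 members, where it was for 73.3% of 14034 genes. The shares are therefore given as a description of these pools, with intervals for counting error only. Celf2 was seen in 71.4% (exact binomial 95% interval 62.7 to 79.1) of batch 2, 74.4% (64.2 to 83.1) of batch 1 and 92.9% (87.0 to 96.7) of frozen nuclei. In the same order, Celf4 was seen in 60.3%, 42.2% and 74.8%, and Celf5 in 9.52%, 6.67% and 32.3%. Elavl2 was seen in 6.35%, 10.0% and 27.6%, and Elavl4 in 11.9%, 11.1% and 18.1%. Rbfox2 was seen in 34.9%, 36.7% and 49.6%, and Rbfox3 in 78.6%, 61.1% and 85.8%. Mbnl2 was seen in 31.7%, 32.2% and 53.5%, which goes against its pooled level in batch 1. Rbfox1 was seen in 91.3% of batch 2 and of frozen nuclei and in 66.7% of batch 1. Nova1, the member with the opposite order, was seen in 21.4%, 14.4% and 7.09%. Before thinning, Celf2 was seen in 120 of 134, 86 of 98 and 134 of 137 nuclei. At least 5 of the 10 members were seen in 46.0% of thinned batch 2, 33.3% of batch 1 and 67.7% of frozen nuclei.

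**Figure D4:**
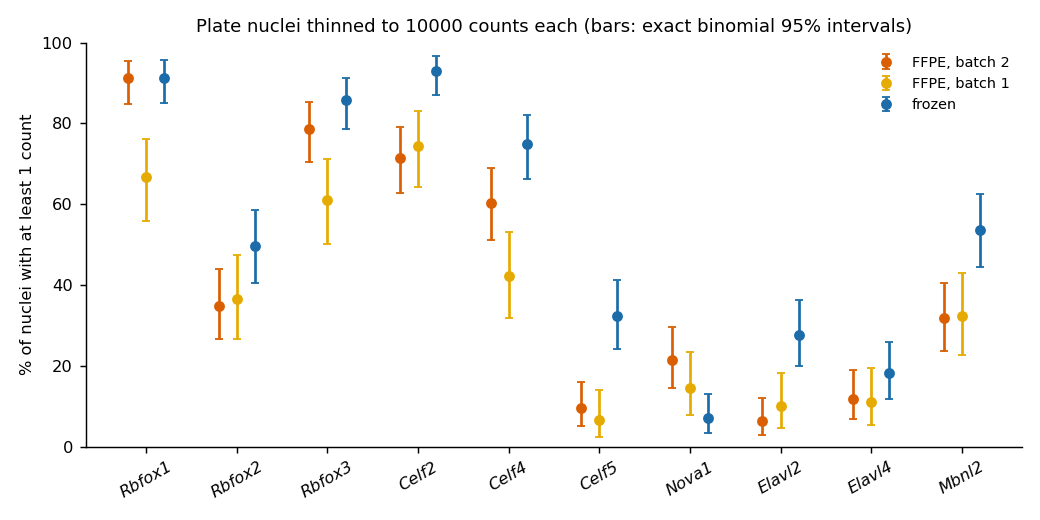
The percent of plate nuclei with at least 1 count after thinning to 10000 counts is plotted for each member in FFPE batch 2, FFPE batch 1 and frozen nuclei, with exact binomial 95% intervals. Frozen nuclei are highest for 9 of the 10 members, from Celf2 at 92.9% to Elavl4 at 18.1%, with Rbfox1 at 91.3% in both frozen and batch 2 nuclei, and lowest for Nova1 at 7.09%.

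Droplet nuclei had a median of 325 unique molecular identifiers (UMIs), and no barcode occurred more than once. Their classes are the authors' annotation and were made from these same nuclei, so differences between classes are given as a description with exact Poisson intervals. None of the 10 members was at least 2-fold higher in the pooled neuron classes than in the 6 other classes, as 2.96% of 9511 genes were. The ratio of neuron to other classes was 1.75 for Rbfox1, 1.61 for Celf4, 1.55 for Celf2, 1.54 for Rbfox3, 1.51 for Celf5, 1.48 for Elavl2, 1.31 for Rbfox2, 1.14 for Elavl4, 1.04 for Nova1 and 0.814 for Mbnl2. The median over the members was 1.5, against 0.997 over 27 other RNA-binding regulators and 0.962 over 34 splicing factors with at least 30 UMIs. Among the regulators, Qk (0.313), Msi2 (0.467) and Cpeb2 (0.642) were lowest and Celf1 (1.34), Srrm3 (1.49) and Srrm4 (1.53) highest. Of the splicing factors, Prpf4b (0.623), U2af1 (0.655) and Tra2a (0.701) were lowest. Hnrnpd (1.25), Sf3b2 (1.43) and Snrpn (1.77, from 77 and 11 UMIs) were highest.

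Neuronal transcripts were also seen in classes that should lack them. Rbfox3 stood at 540 CPM (here UMIs scaled to 1000000) in the neuron classes and 307 in Microglia, and after thinning to 300 UMIs was seen in 15.3% of neuron and 8.11% of Microglia nuclei (17.7% and 8.60% before thinning, at median depths of 325 and 285 UMIs). Microglia held 29296 UMIs in 93 nuclei, 37 of them with at least 300 UMIs, so their Rbfox3 values rest on few counts. The neuronal genes Snap25 and Slc17a7 stood at 2560 and 546 CPM in Microglia and 2446 and 562 in the neuron classes. Nova1 was seen in 5.38% of neuron nuclei and in 7 of 93 Microglia nuclei (7.53%, exact binomial 95% interval 3.08 to 14.9), so its share in neurons did not exceed that in Microglia. Levels set against the length of the gene differed by 3.54 times between the highest and the lowest member, and levels not set against it by 51.4 times. As CPM for each kb of gene span, Celf2 was highest at 3.05, then Celf5 at 2.63, Mbnl2 at 2.17 and Rbfox1 at 2.08, and Elavl2 was lowest at 0.862.

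Within the neuron classes Rbfox1 and Celf2 had different orders. Rbfox1 was highest in ExNeuron3 at 4852 CPM (4636 to 5076), then ExNeuron2 at 3761 (3559 to 3971), with ExNeuron1, ExNeuron4 and ExNeuron5 at 3101, 3078 and 2835 with overlapping intervals. ExNeuron6 was lowest at 2092, within the range of 1766 to 2350 of the other classes. Celf2 was highest in ExNeuron1 at 4245 (4106 to 4388) and ExNeuron6 at 4221 (3786 to 4692), and stood at 3285 in ExNeuron5, 2560 in ExNeuron2, 2194 in ExNeuron3 and 1948 in ExNeuron4. The intervals of the last 2 overlapped that of Astrocyte at 2183. ExNeuron3 also held the highest sum of granule neuron markers, 4531 CPM against 1961 to 3425 in the other neuron classes, with Gabra6 at 364 and Fat2 at 372. All 9 granule markers in the table were seen in it, as in every neuron class and in Astrocyte, Oligodendrocyte and Fibroblast, and the part of such cells in the 2 orders was not tested.

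Elavl2 stood out in ExNeuron4 at 357 CPM (293 to 431), against 40.5 to 142 in the other neuron classes. Its share of thinned nuclei there was 10.2% (7.83 to 13.1), and 3.14% in ExNeuron1. The name of this class went against its markers: inhibitory markers summed to 2883 CPM, with Gad2 at 281, Sst at 479 and Adarb2 at 1402, and cortical excitatory markers to 2020, the lowest of the neuron classes. The inhibitory sum was also high in ExNeuron6, at 2215 CPM with cortical excitatory markers at 2966, and was 637 to 1010 CPM in the other neuron classes. Mbnl2 was lowest in ExNeuron4, at 215 CPM (166 to 274), and reached 460 in Oligodendrocyte. Rbfox3 ran from 420 in ExNeuron4 to 698 in ExNeuron3, and Celf4 from 479 in ExNeuron4 to 701 in ExNeuron6, with overlapping intervals for most neighbours.

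**Figure D5:**
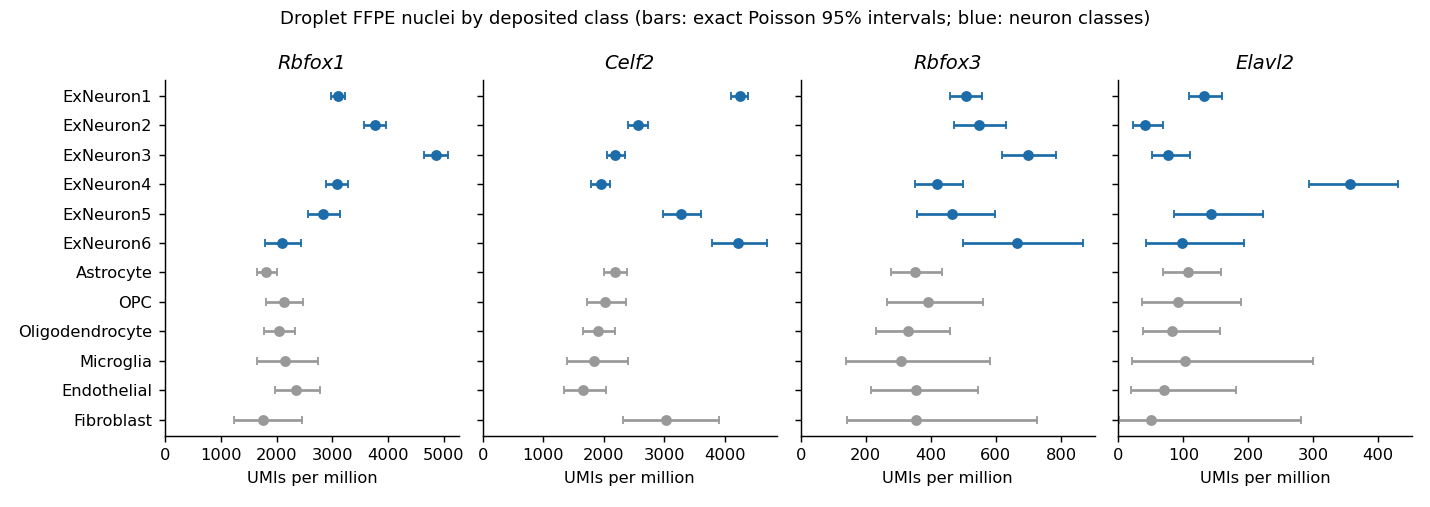
UMI CPM (horizontal axis) with exact Poisson 95% intervals are plotted for Rbfox1, Celf2, Rbfox3 and Elavl2 in the 12 annotated classes, neuron classes in blue and others in grey. Rbfox1 peaks in ExNeuron3 at 4852, Celf2 in ExNeuron1 and ExNeuron6 at 4245 and 4221, and Elavl2 in ExNeuron4 at 357.

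Likeness was described by Pearson's r of log2 levels over the 12 classes, which share 1 library and its background, among 2734 genes with at least 200 UMIs. Rbfox1 was most like Kcnip4 (r = 0.96), Rims1 (0.96) and Epb41 (0.93). Rbfox3 was most like Mir124a-1hg (0.94), Celf4 (0.91) and Zfp385b (0.91), and the pair of Rbfox3 and Celf4 was the most alike among the members. Celf2 was most like Kalrn (0.87), Atp2b2 (0.85) and Ano3 (0.83). Mbnl2 was most like Glul (0.80), an enzyme gene of astrocytes, and among members its lowest r was -0.72 with Elavl2.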

How the data were processed

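Nuclei of mouse brain were measured in bulk wells, on plates and in droplets. The deposited values are raw read counts by gene for wells and plate nuclei, and raw UMI counts for droplets. They add up to the authors' annotated totals to within 1 count. Per the submitters' processing notes the builds were hg19 and mm10. The aligner, the counter and strand use are each not given in the sources used here, so reads of overlapping or antisense genes cannot be told apart. Wells, plates and classes were taken from the authors' annotation; 9 FFPE plate columns are not among the 134 nuclei of batch 2. Nuclei of plate batch 3 were not analysed here. Human rows were left out of fits and of CPM, except where CPM of all counts is named.

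The members and lists were chosen with earlier results of these data known. Named genes were all members and, of each list, up to 3 rises and 3 falls per contrast, or in droplets the 3 highest and 3 lowest ratios; the like genes are the 3 with the highest r, after adding 10 to CPM. Wells were fitted over all genes with the quasi-likelihood test of edgeR 4.0.16 (R 4.3.3) after filterByExpr and TMM scaling, with Benjamini-Hochberg adjusted p under 0.05. FFPE minus frozen is the mean of 3 methods minus frozen; method pairs used FFPE wells only. Alternatives were DESeq2 1.42.0 (size factors, and its Wald test), no filter, nuclei number as covariate, wells of 10 or 100 nuclei, leaving out each SMART-Seq2 well, and, chosen after seeing the data, leaving out the mineral oil wells of 10 nuclei. The scripts were tested on simulated data. Nuclei were pooled per arm or class, and thinned without replacement; doublets were not called. Gene spans are from GENCODE M21 (GRCm38). Intervals are exact, at 95%. Python 3.11.15, numpy 2.4.6, pandas 2.3.3, scipy 1.17.1 and matplotlib 3.10.9 were used.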

Additional observations from a re-analysis of the deposited data

Results flagged for a closer look

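In 9 of 48 sets of 8 SCRB-seq wells (6 members, 8 combinations of method and nuclei number), 1 well stood far from the others, by the gap to the nearest well divided by the range of the set (Dixon's test at 95%). The test's rate of 1 in 20 sets assumes normal and independent values. These sets share wells between members and many hold few counts, so the number flagged cannot be set against that rate. Of these, 8 were sets of 10 nuclei. Among mineral oil wells of 10 nuclei, the ratio was 0.939 for Celf2 (1605 CPM against 90.4 to 183), 0.939 for Rbfox1 (6789 CPM, from 51 counts, against 49.9 to 459), 0.811 for Mbnl2 (2259 CPM against 0 to 426) and 0.578 for Rbfox3 (1265 CPM against 0 to 534). Among heated xylene wells of 10 nuclei it was 0.596 for Celf2 (2778 CPM), 0.785 for Mbnl2 (833 CPM) and 0.633 for Rbfox3 (1308 CPM). Among frozen wells of 10 nuclei it was 0.566 for Mbnl2 (795 CPM). The set of 100 nuclei was mineral oil, with 0.642 for Rbfox1, where 1 well was low at 1523 CPM against 2756 to 3444.

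In SCRB-seq, 5 of the 20 genes tested from the related lists had a larger FFPE minus frozen difference at 100 than at 10 nuclei. By this edgeR test of the interaction, 18.9% of all 1478 genes passed, 239 larger and 41 smaller, with a median of 0.46. The log2 interaction was 3.54 for Srsf11 (adjusted p = 0.000289), 2.92 for Elavl3 (adjusted p = 0.00334), 2.61 for Srrm3 (adjusted p = 0.00340), 1.80 for Cpeb3 (adjusted p = 0.0372) and 1.44 for Ddx5 (adjusted p = 0.0253).

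The human RBFOX1 row of the SCRB-seq table, which no fit used, held 38359 counts in the FFPE wells and 379 in the frozen wells.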

How the results depend on the processing

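The number of members called between FFPE and frozen SCRB-seq wells was 1, and 3 with DESeq2's size factors or Wald test (Celf2, Celf4, Mbnl2), 2 with no filter (Celf2, Celf5), 3 in wells of 100 nuclei (Celf2, Rbfox1, Celf5) and 2 without the mineral oil wells of 10 nuclei (Celf2, Rbfox1). For mineral oil minus heated xylene it was 1, and 0 with DESeq2's size factors, with its Wald test and in wells of 100 nuclei, and 2 with no filter (Celf2, Elavl4). Of all genes, 92 of 1080 were called there, and 70 and 96 with DESeq2's size factors and Wald test. In wells of 100 nuclei 256 of 1953 genes were called, and with no filter 3415 of 18205. For mineral oil minus room-temperature xylene it was 1, and 2 with no filter (Celf2, Nova1) and 0 without the mineral oil wells of 10 nuclei. Of all genes, 111 of 1080, 2925 of 18205 and 165 of 2169 were called in that order. In SMART-Seq2, leaving out 1 well gave 1 to 2 members for FFPE minus frozen; the cause of these changes was not tested. Members at least 2-fold apart on plates were 2, and 4 in batch 1, or 5 there as a mean over nuclei, and 3 without the deep columns. All genes called between FFPE and frozen were 857 of 1478 in SCRB-seq, and 4785 of 19006 with no filter; 1119 of 2440 in wells of 100 nuclei, 478 of 783 in wells of 10 and 1312 of 2569 without the mineral oil wells of 10 nuclei. They split into 447 higher and 410 lower, and into 309 and 674 with DESeq2's size factors. In SMART-Seq2 they were 372, and 630 with DESeq2's Wald test.

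These uncalled differences changed sign. In SCRB-seq (FFPE minus frozen), Rbfox1 was -0.18 with both DESeq2 settings and -0.13 in wells of 10 nuclei. Rbfox2 was -0.40 and -0.41 with DESeq2's size factors and Wald test and -0.26 in wells of 10 nuclei. Rbfox3 was -0.52 with both, -0.14 with nuclei number as covariate and -0.69 in wells of 10 nuclei. Celf4 was 0.28 in wells of 100 nuclei and 0.037 without the mineral oil wells of 10 nuclei. In SMART-Seq2, Rbfox2 was 0.0015 and 0.00094 with the DESeq2 settings, and Elavl4 -0.10 with nuclei number as covariate. Leaving out 1 well gave -0.20 to 0.14 for Rbfox2, -0.54 to 0.42 for Elavl4 and -0.38 to 0.17 for Mbnl2. On plates Elavl4 was -0.77 without the deep columns, -0.083 with a mean over those nuclei and -0.088 after thinning; the ratios of Rbfox1, Rbfox2, Rbfox3, Celf4 and Mbnl2 took either sign there. No paired analysis was possible because the wells carry no replicate numbers. The SMART-Seq2 wells can be matched by nuclei number only, and with it as covariate Celf2 (-1.63) and Elavl2 (-3.53) were called, with 429 of 9092 genes. Counts of 0 to 42 per well limit Celf5, Nova1, Elavl2 and Elavl4 in SCRB-seq.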
